A study of Mus musculus with 13 samples.

Results

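The genes described here encode the subunits of the proteasome, its assembly chaperones and its activators. They are the rows of the deposited table whose symbol starts with Psm, followed by a letter from a to e and a number. The immunoproteasome genes Psmb8 and Psmb9 and symbols marked as pseudogenes were left out by the same rule. It found 43 of the 14518 genes in the table, and 42 of them had enough reads to be tested, the exception being Psmb11. By role they are 8 alpha ring genes, 9 beta ring genes, 6 ATPase genes, 11 non-ATPase genes of the regulatory particle, 3 assembly chaperones (Psmd5, Psmd9 and Psmd10) and 5 activators. The remaining gene, Psmc3ip, shares the symbol pattern but encodes a factor of meiotic recombination and no proteasome subunit.

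The RNA came from microglia, the resident macrophages of the brain, of C57BL/6 mice aged 2 months. RSD samples (n = 7) came from mice put through repeated social defeat, a stressor built on encounters with an aggressive mouse, for 6 cycles, and CON samples (n = 6) came from controls. RNA of both groups was taken 24 days after the last cycle, from cells enriched on Percoll and sorted by flow cytometry for CD11b and an intermediate level of CD45, so the comparison asks what still differed at that time. The labels name no genotype other than the strain and leave unsaid whether each sample is a different animal, so the p-values rest on the spread between samples alone. Depth was 9.76 to 12.3 M reads per sample in RSD and 9.89 to 12.2 M in CON.

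The proteasome degrades proteins that carry ubiquitin chains. Its core particle is a barrel of outer alpha rings, which gate the entrance, and inner beta rings, which hold the proteolytic sites. A regulatory particle caps the barrel, and in it a ring of ATPases unfolds the substrate while non-ATPase subunits bind and remove ubiquitin. Immune cells such as microglia can exchange the catalytic beta subunits for the immunoproteasome forms Psmb8, Psmb9 and Psmb10, and the activators of the Psme family can take the place of the regulatory particle. In mammalian cells the transcription factor Nfe2l1 acts on many of these genes through antioxidant response elements when proteasome activity is short.

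Promoter windows from RefSeq, on the build GRCm38.p6, were found for 36 of the 43 genes and none for Psma8, Psmb1, Psmb2, Psmb7, Psmc3, Psmd3 and Psmd7. Each window runs from 250 bases before the transcription start to 50 bases after it. The core of the antioxidant response element, TGACNNNGC on either strand, occurred in 6 of the 36 (16.7%), namely Psmb5, Psmb6, Psmc6, Psmd9, Psmd12 and Psme4, and in 14% of all 27025 genes with a window. The heat shock motif GAANNTTC, which reads the same on both strands, was found in Psmb5 alone of the 36 (2.78%), against 9.04% of all genes. The CCAAT box was found on either strand in 14 (38.9%), against 41.1% of all genes. A match describes letters and is not shown to be a binding site. The windows of 4 genes with a match are shown because the values below turn on them: Psmd12 had the smallest p of all members between RSD and CON, Psmb5 lay farthest from its median in a library, and Psmc6 and Psme4 had the smallest p values of the members in the test of whether the difference varied between ranges of sample numbers. They are printed 5′ to 3′ on the strand of the gene, to 20 bases after the start. Capitals mark the core of the antioxidant response element alone. The heat shock match of Psmb5, which begins at position -242, is left in small letters.
Psmd12: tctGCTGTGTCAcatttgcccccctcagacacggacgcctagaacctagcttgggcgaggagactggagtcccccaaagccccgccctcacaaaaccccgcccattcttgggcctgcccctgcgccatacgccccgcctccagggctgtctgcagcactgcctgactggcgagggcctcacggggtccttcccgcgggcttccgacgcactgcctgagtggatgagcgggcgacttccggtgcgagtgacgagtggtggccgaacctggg
Psmc6: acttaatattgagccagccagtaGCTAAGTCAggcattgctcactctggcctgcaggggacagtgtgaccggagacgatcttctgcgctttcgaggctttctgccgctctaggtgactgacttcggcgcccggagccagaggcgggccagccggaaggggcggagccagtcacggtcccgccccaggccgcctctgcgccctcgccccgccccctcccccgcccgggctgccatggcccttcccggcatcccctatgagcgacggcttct
Psme4: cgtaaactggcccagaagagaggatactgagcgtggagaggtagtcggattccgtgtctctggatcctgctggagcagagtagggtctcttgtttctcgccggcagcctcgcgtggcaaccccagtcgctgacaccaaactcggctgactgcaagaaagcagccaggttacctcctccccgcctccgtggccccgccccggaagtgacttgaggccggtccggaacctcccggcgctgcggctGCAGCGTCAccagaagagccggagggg
Psmb5: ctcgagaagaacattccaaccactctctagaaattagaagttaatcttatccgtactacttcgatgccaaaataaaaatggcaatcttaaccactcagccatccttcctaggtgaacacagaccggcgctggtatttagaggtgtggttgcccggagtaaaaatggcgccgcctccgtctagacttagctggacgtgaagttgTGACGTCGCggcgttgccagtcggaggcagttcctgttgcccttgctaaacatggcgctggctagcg
The Psmd12 window is chr11:107479278-107479547 on the plus strand, and its match begins at position -247 counted from the start. The Psmc6 window is chr14:45329574-45329843 on the plus strand, with the match at position -227. That of Psme4 is chr11:30771525-30771794 on the plus strand, with the match at position -7, and that of Psmb5 is chr14:54617976-54618245 on the minus strand, with the match in capitals at position -47.

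RSD 8 and CON 18 stood apart from the other libraries, so the differences between RSD and CON are given with and without them. The median Spearman correlation of a library with the other 12, over all genes, was 0.968 for RSD 8, 0.942 for CON 18 and 0.989 to 0.992 for the rest. The summed level of 6 microglia markers was 251500.7 to 269631.5 normalized reads (reads divided by the size factor of the sample) in RSD, 258775.9 to 270905.6 in the other CON samples and 162748 in CON 18. The 5 of 6 markers of border-associated macrophages that are in the table summed to 288 to 440 in RSD, 184 to 321 in the other CON samples and 12890.5 in CON 18, with Lyve1 not among the genes in the table and Pf4 and Cbr2 at 0 in some samples. Endothelial markers, 2 of 4 in the table, summed to 315 to 442 in RSD, 382 to 473 in the other CON samples and 71.0 in CON 18. Astrocyte markers, 2 of 4 in the table, summed to 1260.4 to 1618.9 in RSD, 1236.6 to 1602.4 in the other CON samples and 398 in CON 18. Neutrophil markers, 4 of 5 in the table, summed to 3.70 to 738 in RSD and 2.88 to 360 in CON, with S100a8, S100a9 and Retnlg at 0 in some samples. In RSD 8 the deviation of a gene from its median over the 13 samples was related to the GC content of its longest transcript, with a Spearman rho of -0.73 across all genes and -0.62 across the 42 tested members. Genes within a library are not independent replicates, so these correlations carry no p.

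None of the 42 tested members differed between RSD and CON at an adjusted p below 0.05 by limma with Benjamini-Hochberg adjustment over 12496 genes, and neither did any other gene (0% of genes called). The smallest adjusted p of a member was 0.821. By edgeR on the recovered reads 0 members passed and by DESeq2 0 members passed. At an unadjusted p below 0.05, 1 member (2.38%) was found by limma, 1 by edgeR and 1 by DESeq2, beside 4.00% of all genes by limma. That member was Psmd12, and a count this small is not read as a result about the members. The 7 RSD and 6 CON values did not separate without overlap for any of the 42 members, as they did for 0.0640% of all genes. In bulk RNA, a lower value through fewer cells of a type and one through less RNA per cell cannot be told apart.

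The fitted differences, RSD minus CON on the scale of log2(normalized reads + 1), had a median of 0.07 over the members, against 0.01 over all genes. They were positive for 29 of 42 members, against 51.4% of all genes. Without RSD 8 and CON 18 the median was 0.00 and 21 of 42 were positive, against 50.3% of all genes. Leaving out RSD 8 alone gave 0.05 and 25 positive members, and leaving out CON 18 alone gave 0.02 and 23. The share of positive differences thus came down to the background once both libraries were left out. By role, the median difference was 0.05 in the alpha ring, -0.11 in the beta ring, 0.14 in the ATPase ring, 0.09 in the non-ATPase group, 0.13 in the chaperones and 0.06 in the activators. Without both libraries the medians by role ran from -0.07 in the beta ring to 0.03 in the ATPase ring and the non-ATPase group.

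**Figure D1:**
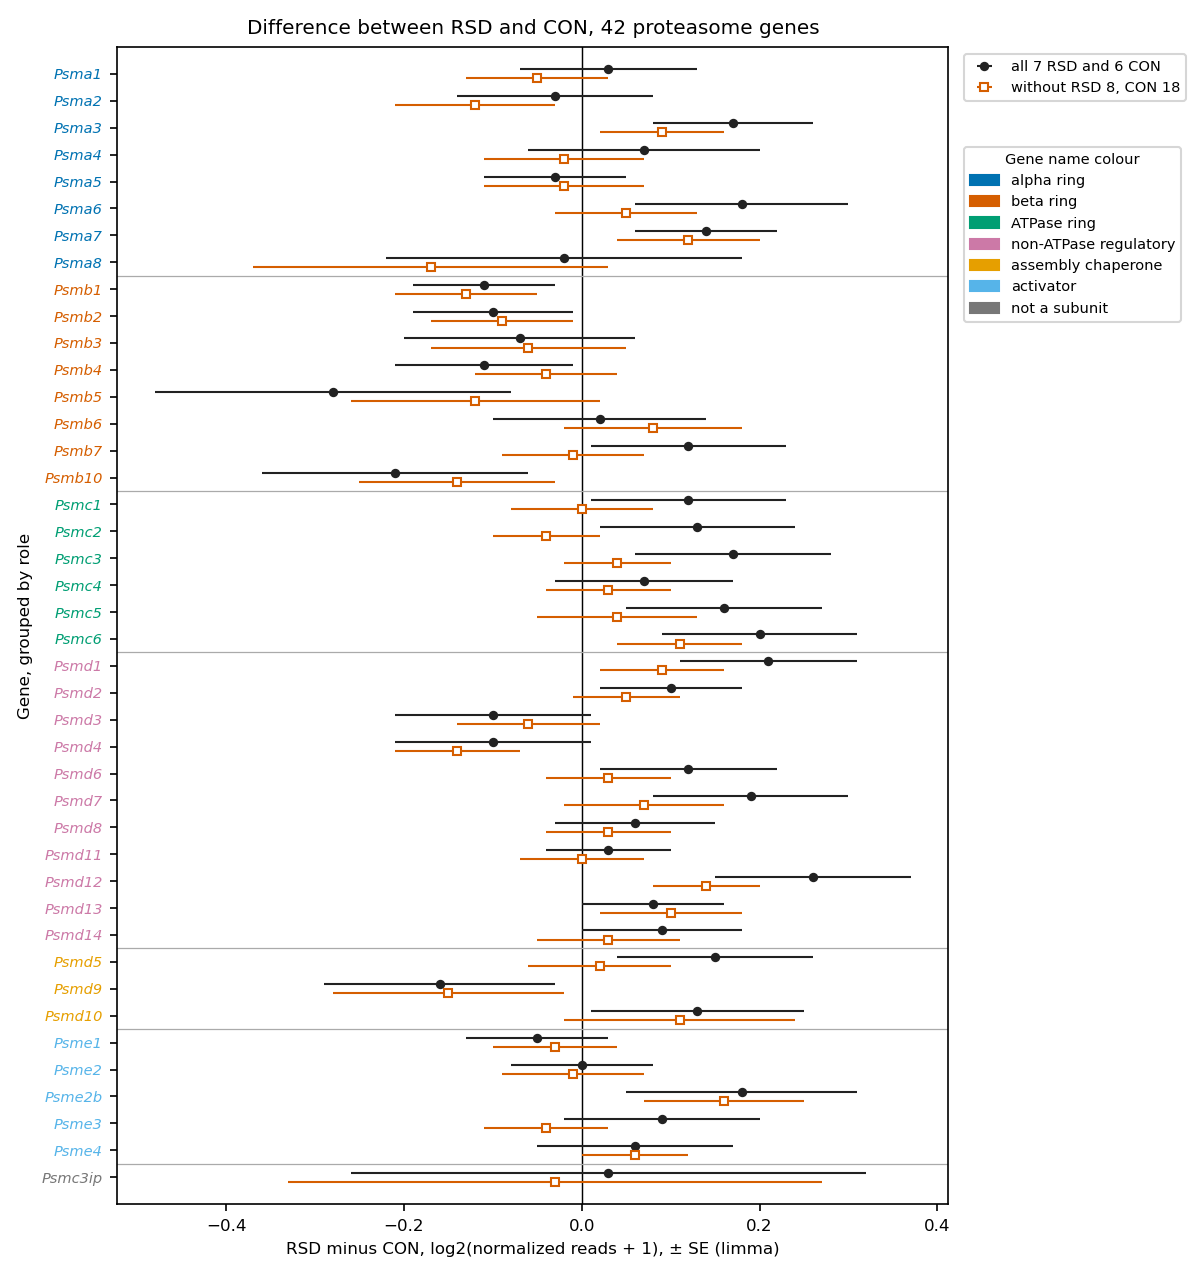
The fitted difference of each tested gene, RSD minus CON on the log2(normalized reads + 1) scale with its standard error, is shown with all samples (filled circles) and without RSD 8 and CON 18 (open squares), grouped by role. With all samples 29 of 42 differences are positive, and without both libraries 21 are; no gene passed the adjusted threshold in either fit.

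In the alpha ring, 5 of 8 differences were positive and 3 negative, none of them past the test. Leaving out RSD 8 and CON 18 made them 3 positive and 5 negative, with a median of -0.02. Psma3, a core ring subunit, had 519 to 801 normalized reads in RSD (median 607) and 493 to 600 in CON (median 526). The RSD maximum was in RSD 8, 4 RSD values lay above all CON values, and the fitted difference was 0.17 ± 0.09 (SE, limma unadjusted p 0.0837) with all samples and 0.09 ± 0.07 without RSD 8 and CON 18. Psma6, at chr12:55384222-55418454 on GRCm38, had 321 to 567 in RSD (median 364) and 303 to 379 in CON (median 351). Its groups overlapped except for 3 RSD values above all CON values, RSD 8 being the highest, and its difference of 0.18 ± 0.12 (p 0.152) was 0.05 ± 0.08 without both libraries. Psma7 had 324 to 415 in RSD (median 371) and 295 to 365 in CON (median 346). Here RSD 2 was the highest sample, and 5 RSD values lay above all CON values. Its difference was 0.14 ± 0.08 (p 0.120) with all samples and 0.12 ± 0.08 without both. Psma8, the form of the alpha ring known from the testis, was low, at 33.3 to 60.7 in RSD (median 40.7) and 33.6 to 74.4 in CON (median 37.6), with a difference of -0.02 ± 0.20 with all samples and -0.17 ± 0.20 without both.

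In the beta ring, 6 of 8 tested differences were negative and 2 positive, and none passed the test. Without RSD 8 and CON 18 they were 7 negative and 1 positive. Psmb5, which carries the chymotrypsin-like site, had 35.1 to 104 normalized reads in RSD (median 73.3) and 80.8 to 113 in CON (median 83.5). RSD 8 held the lowest value, 4 RSD values lay below all CON values, and the groups overlapped. The difference was -0.28 ± 0.20 (p 0.183) with all samples and -0.12 ± 0.14 without RSD 8 and CON 18. Psmb6, which carries the caspase-like site, had 121 to 195 in RSD (median 182) and 141 to 188 in CON (median 170). RSD 8 was again the lowest sample, and the difference was 0.02 ± 0.12 (p 0.853) with all samples and 0.08 ± 0.10 without both. Psmb7, which carries the trypsin-like site, had 275 to 363 in RSD (median 295) and 201 to 336 in CON (median 286). Its lowest value was in CON 18 and its highest in RSD 8, and the difference of 0.12 ± 0.11 (p 0.287) was -0.01 ± 0.08 without both. Psmb10, the immunoproteasome counterpart of Psmb7, had 123 to 249 in RSD (median 230) and 197 to 262 in CON (median 240). RSD 8 was the lowest sample, and the difference was -0.21 ± 0.15 (p 0.186) with all samples and -0.14 ± 0.11 without both.

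Psmb1, a noncatalytic beta subunit, had the smallest p of the beta ring. It had 315 to 361 normalized reads in RSD (median 339) and 322 to 412 in CON (median 361). No RSD sample exceeded the CON median, yet the ranges overlapped, and the difference was -0.11 ± 0.08 (p 0.162). It was -0.13 ± 0.08 without RSD 8 and CON 18, which were not its extreme samples. Psmb11, the beta subunit of the thymus proteasome, had 4.26 to 13.3 in RSD (median 7.13) and 3.87 to 13.5 in CON (median 6.43). With a mean of 7.54 reads its counting error is 36.0% in a library, and it was not tested.

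All 6 ATPase genes had positive differences (0.07 to 0.20), none past the test, and without RSD 8 and CON 18 they were 4 positive and 2 not, at -0.04 to 0.11. Psmc6, the ATPase with the smallest p, had 726 to 1237.6 normalized reads in RSD (median 797) and 670 to 832 in CON (median 726). All 7 RSD values lay at or above the CON median and 2 above all CON values, RSD 8 being the highest, and the difference was 0.20 ± 0.11 (p 0.0883) with all samples and 0.11 ± 0.07 without both libraries. Psmc3 had 523 to 581 in RSD (median 552) and 320 to 573 in CON (median 530). CON 18 held the lowest value, far below the next CON sample at 491, and the difference of 0.17 ± 0.11 (p 0.157) was 0.04 ± 0.06 without both. Psmc5 had 265 to 322 in RSD (median 314) and 192 to 310 in CON (median 288). CON 18 was again the lowest sample and 4 RSD values lay above all CON values. The difference of 0.16 ± 0.11 (p 0.181) was 0.04 ± 0.09 without both libraries.

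Among the 11 non-ATPase genes, 9 differences were positive and 2 negative, and 9 were positive without RSD 8 and CON 18. Psmd12, a lid subunit at chr11:107479484-107504362, had 495 to 860 normalized reads in RSD (median 554) and 449 to 524 in CON (median 481). The highest sample was RSD 8 and the lowest CON 18, 5 RSD values lay above all CON values, and RSD 11 and RSD 7 lay within the CON range. The difference was 0.26 ± 0.11 (limma unadjusted p 0.0282, adjusted p 0.821) with all samples and 0.14 ± 0.06 (p 0.0361, adjusted p 0.902) without both libraries. It was the member with the smallest unadjusted p by limma, edgeR (0.0246) and DESeq2 (0.0204). Psmd1, a scaffold subunit, had 859 to 1296.1 in RSD (median 944) and 712 to 1049.9 in CON (median 846). All 7 RSD values lay above the CON median, with RSD 8 the highest and CON 18 the lowest of all samples, and the difference of 0.21 ± 0.10 (p 0.0562) was 0.09 ± 0.07 without both. Psmd7, which pairs with the deubiquitinase subunit Psmd14, had 322 to 474 in RSD (median 388) and 267 to 407 in CON (median 347). With 3 RSD values above all CON values, its difference was 0.19 ± 0.11 (p 0.118) with all samples and 0.07 ± 0.09 without both. Psmd4, a ubiquitin receptor chosen after its values were seen, had a negative difference, -0.10 ± 0.11 with all samples and -0.14 ± 0.07 without both. Its unadjusted p was 0.395 with all samples, 0.0393 without CON 18 and 0.0564 without both.

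The 3 assembly chaperones, which help to build the base of the regulatory particle, had 2 positive differences and 1 negative, none past the test and with the same counts without RSD 8 and CON 18. Psmd5 had 245 to 334 normalized reads in RSD (median 285) and 181 to 296 in CON (median 261). Its lowest sample was CON 18, and the difference of 0.15 ± 0.11 (p 0.193) was 0.02 ± 0.08 without both libraries. Psmd9 had 79.0 to 136 in RSD (median 99.8) and 106 to 135 in CON (median 118). RSD 2 was its lowest sample, with 4 RSD values below all CON values and 1 above them. The difference was -0.16 ± 0.13 (p 0.257) with all samples and -0.15 ± 0.13 without both. Psmd10, also known as gankyrin, had 72.4 to 94.6 in RSD (median 83.2) and 61.5 to 89.7 in CON (median 78.6), with a difference of 0.13 ± 0.12 (p 0.315) with all samples and 0.11 ± 0.13 without both.

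Of the 5 activators, 4 differences were positive and 1 negative. Without RSD 8 and CON 18 they were 2 positive and 3 negative, with a median of -0.01, and with all samples edgeR and DESeq2 gave 3 positive and 2 negative. Psme1, which forms a ring with Psme2 that is induced by interferon, had 438 to 544 normalized reads in RSD (median 496) and 456 to 577 in CON (median 495). The ranges nearly coincided and the difference was -0.05 ± 0.08 (p 0.560) with all samples and -0.03 ± 0.07 without both. Psme2 had 340 to 427 in RSD (median 400) and 364 to 457 in CON (median 373), with a difference of 0.00 ± 0.08 (p 0.977) with all samples and -0.01 ± 0.08 without both. Psme2b, whose transcript is 99.4% identical to that of Psme2 over 794 bp, had 224 to 385 in RSD (median 264) and 197 to 294 in CON (median 234). RSD 8 was the highest sample, and the difference was 0.18 ± 0.13 (p 0.177) with all samples and 0.16 ± 0.09 without both libraries. Reads of Psme2 and Psme2b can be assigned to either gene, so both values are uncertain.

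Psme3, a nuclear activator, had 440 to 556 normalized reads in RSD (median 507) and 308 to 530 in CON (median 506). CON 18 stood far below the other 5 CON samples at 487 to 530, and the difference of 0.09 ± 0.11 (p 0.460) was -0.04 ± 0.07 without RSD 8 and CON 18. Psme4, a single-chain activator and the member with the most reads, had 2045.1 to 3159.4 in RSD (median 2240.7) and 1990.6 to 2878.1 in CON (median 2155.8). RSD 8 was the highest RSD sample and CON 18 the highest CON sample, and the difference was 0.06 ± 0.11 (p 0.592) with all samples, 0.06 ± 0.06 without both and -0.02 ± 0.08 without RSD 8 alone. Psmc3ip, the gene that is no subunit, had 14.3 to 41.1 in RSD (median 21.8) and 9.61 to 30.6 in CON (median 23.5), with a difference of 0.03 ± 0.29 (p 0.908) with all samples and -0.03 ± 0.30 without both.

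**Figure D2:**
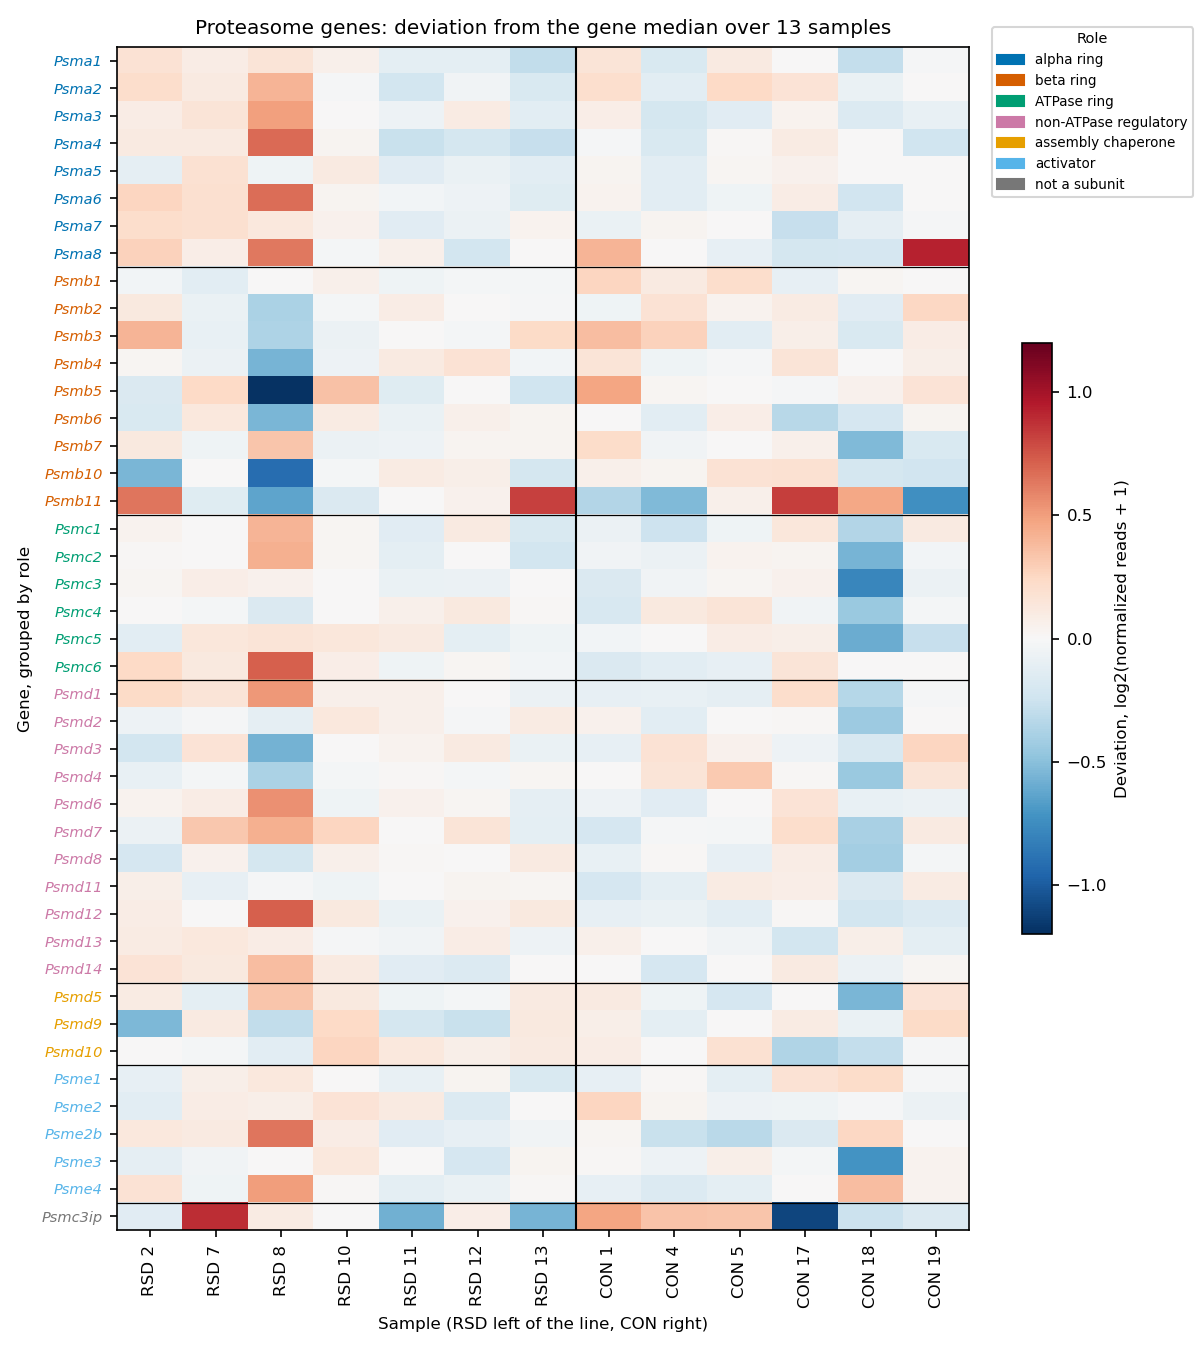
Each cell gives the deviation of a gene (rows, grouped by role) in a sample (columns) from the median of that gene over the 13 samples, on the log2(normalized reads + 1) scale, RSD samples left of the line. The largest deviation is that of Psmb5 in RSD 8 at -1.19, followed by Psmc3ip in CON 17 at -1.10, and the largest in CON 18 is that of Psmc3 at -0.78.

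The members varied little between most libraries. The median over members of the SD of log2(normalized reads + 1) was 0.20 over all 13 samples and 0.12 without RSD 8 and CON 18. For 4960 genes of like level it was 0.21 and 0.15. RSD 8 held the highest value of 17 members and the lowest of 7, and CON 18 held the highest of 1 and the lowest of 15. The corresponding shares of all genes are 27.5% highest and 24.9% lowest for RSD 8, and 21.5% highest and 22.6% lowest for CON 18.

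In RSD 8 the alpha and beta rings lay on opposite sides of their medians. The median deviation was 0.45 in the alpha ring (7 of 8 above), -0.47 in the beta ring (6 of 8 below) and 0.28 in the ATPase ring. More than 0.5 above the median of the gene were 9 of 42 members (21.4%), against 14.5% of all genes. They were Psma4, Psma6, Psma8, Psmc6, Psmd1, Psmd6, Psmd12, Psme2b and Psme4. More than 0.5 below were 5 (11.9%), against 20.4% of all genes, namely Psmb4, Psmb5, Psmb6, Psmb10 and Psmd3. The median GC content was 44.5% for transcripts of the alpha ring and 51.3% for those of the beta ring. After correction of each sample by a smooth curve on GC content the medians in RSD 8 were 0.10 in the alpha ring, -0.36 in the beta ring and 0.22 in the ATPase ring.

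RSD 2 had the same sign of relation to GC content, with a rho of -0.57 across the members and -0.57 across all genes. CON 4 had the other sign, with 0.57 across the members and 0.41 across all genes. Across all genes the rho was also 0.38 in RSD 11 and 0.23 in CON 5. RSD 8 aside, it ran from -0.09 in CON 18 to 0.19 in CON 1 in the other libraries. The alpha ring median was 0.19 in RSD 2 and 0.04 after the GC correction, and in CON 4 it was -0.13 and -0.09 after the correction. Which property of these libraries moves with GC content was not tested.

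In CON 18, 32 of 42 members lay below their medians, with a median deviation of -0.20. The ATPase ring was lowest at -0.51, followed by the chaperones at -0.29 and the non-ATPase group at -0.22 (10 of 11 below), while the activators were at 0.22. The GC correction left the ATPase ring at -0.47. More than 0.5 below the median of the gene were Psmb7, Psmc2, Psmc3, Psmc5, Psmd5 and Psme3, which are 6 members (14.3%) against 15.8% of all genes. None lay more than 0.5 above, against 14.4% of all genes. This is the library with the low microglia and high border-associated macrophage markers given above, and the part of those cells in the proteasome values was not tested.

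**Figure D3:**
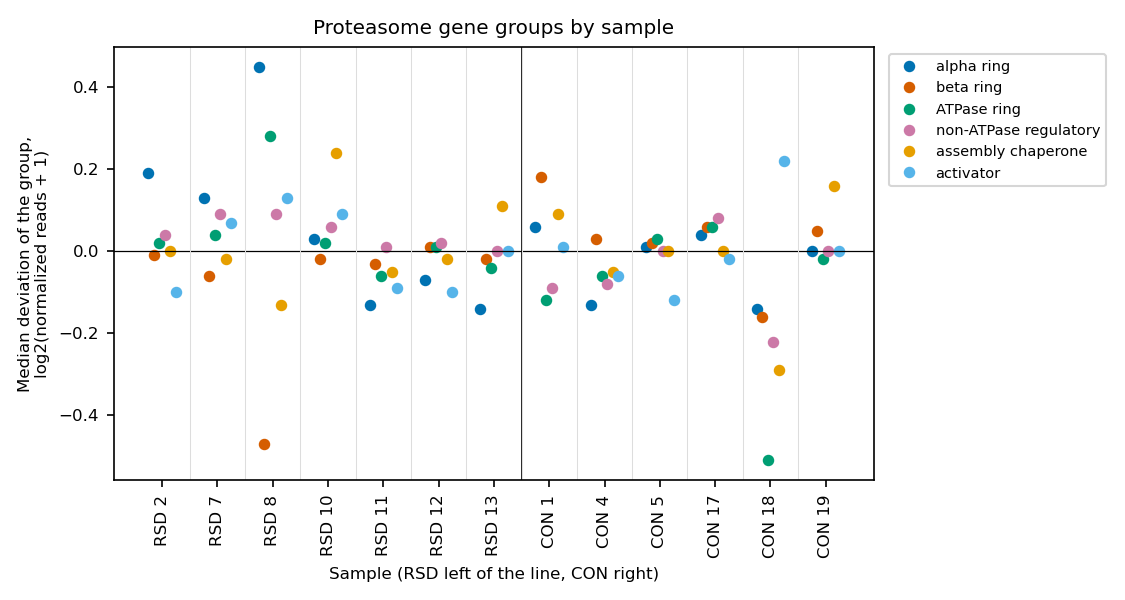
Points give, for each sample and role, the median over the genes of that role of the deviation from the gene median on the log2(normalized reads + 1) scale, RSD samples left of the line. The alpha ring (0.45) and the beta ring (-0.47) are farthest apart in RSD 8, and the ATPase ring is lowest in CON 18 (-0.51).

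**Figure D4:**
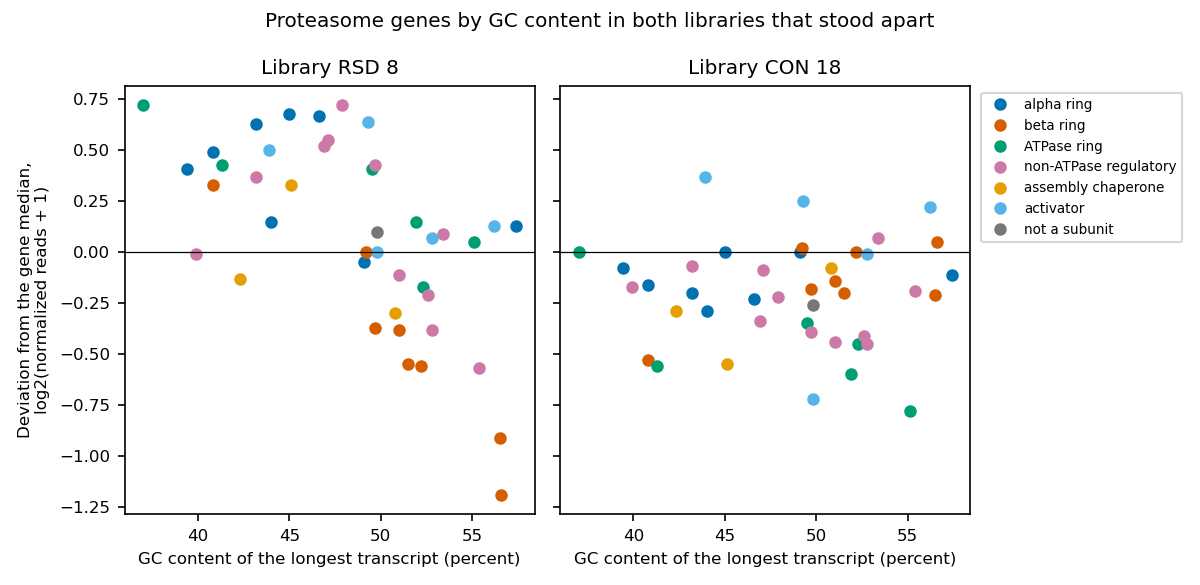
Each point is a tested gene, with the GC content of its longest transcript in percent on the x axis and its deviation from the gene median on the log2(normalized reads + 1) scale on the y axis, in RSD 8 (left) and CON 18 (right). In RSD 8 the deviations run downward with GC content (rho -0.62), and in CON 18 they do not (rho 0.00).

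The sample titles carry numbers from 10 to 19 (4 RSD and 3 CON) and from 1 to 8 (3 RSD and 3 CON), so each range holds samples of both groups. What the ranges stand for is not stated, and they were compared because the values of other genes differ between them. Between numbers 10 to 19 and numbers 1 to 8, with the group in the model, limma called 0 members at an adjusted p below 0.05, beside 0.688% of all genes. At an unadjusted p below 0.05 it found 5 members (11.9%), beside 12.8% of all genes. They were Psma1 (-0.20 ± 0.09), Psma2 (-0.23 ± 0.10), Psma6 (-0.23 ± 0.10), Psma7 (-0.17 ± 0.07) and Psmc3ip (-0.71 ± 0.24), and the smallest adjusted p, 0.222, was that of Psmc3ip. The difference was negative for 31 members (73.8%), against 51.7% of all genes. With RSD 8 and CON 18 left out it was negative for 22 members, against 49.6% of all genes. In that fit 0 members were called, beside 1.98% of all genes, and 2 members had an unadjusted p below 0.05, Psma7 and Psmc3ip, beside 15.8% of all genes.

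Within numbers 10 to 19 the RSD minus CON difference was positive for 24 members (57.1%), against 51.2% of all genes, and within numbers 1 to 8 for 25 (59.5%), against 49.0%. Without CON 18 it was positive for 16 members within 10 to 19, with a median of -0.06, against 49.6% of all genes, and without RSD 8 for 23 within 1 to 8, with a median of 0.05, against 49.5%. The ATPase ring had 4 of 6 positive within 10 to 19 (median 0.16), and 2 of 6 there without CON 18 (median -0.04). In the alpha ring 2 of 8 were positive within 10 to 19 (median -0.05) and 8 of 8 within 1 to 8 (median 0.21). In the beta ring 5 of 8 were positive within 10 to 19 (median 0.03) and 1 of 8 within 1 to 8 (median -0.21). Without RSD 8 the alpha ring had a median of 0.14 within 1 to 8, with 8 of 8 positive, and the beta ring -0.04, with 0 of 8 positive. Across all genes in this range, the rho with GC content was -0.57 in RSD 2, -0.05 in RSD 7 and -0.73 in RSD 8. In CON 1, CON 4 and CON 5 it was 0.19, 0.41 and 0.23. The median GC content was 44.5% in the alpha ring and 51.3% in the beta ring. The fits within a range had no GC correction, and the part of GC content in these ring medians was not tested. At an unadjusted p below 0.05, limma found 1 member within 10 to 19, Psmd10 (2.38%, beside 5.44% of all genes), and 10 within 1 to 8 (23.8%, beside 22.2%).

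The differences above were fitted within each range alone. In a limma fit of all 13 samples, the difference of these differences, 10 to 19 minus 1 to 8, was tested for each gene. It was called for 0 members and 0% of all genes, and at an unadjusted p below 0.05 for 8 members (19.0%), beside 21.7% of all genes. The 8 were Psma4, Psma6, Psmb10, Psmc6, Psmd10, Psmd14, Psme2b and Psme4. Psmc6 had the smallest p, with a difference of -0.04 ± 0.07 within 10 to 19 and 0.49 ± 0.15 within 1 to 8, so that the difference of differences was -0.53 ± 0.17 (unadjusted p 0.00789, limma adjusted p 0.156). Without RSD 8 its difference within 1 to 8 was 0.31 ± 0.09. For Psme4 the values were -0.18 ± 0.10 within 10 to 19 and 0.33 ± 0.14 within 1 to 8, a difference of differences of -0.52 ± 0.17 (limma adjusted p 0.161). They were -0.07 ± 0.05 within 10 to 19 without CON 18 and 0.19 ± 0.08 within 1 to 8 without RSD 8. Psmb10 had the opposite sign, with 0.08 ± 0.14 within 10 to 19 and -0.57 ± 0.21 within 1 to 8 (0.65 ± 0.26, limma adjusted p 0.189), and -0.36 ± 0.15 within 1 to 8 without RSD 8. Without both libraries the difference of differences was -0.37 for Psmc6 (limma adjusted p 0.0542), -0.25 for Psme4 (0.128) and 0.38 for Psmb10 (0.307). The difference of differences was negative for all 8 alpha ring genes and positive for all 8 tested beta ring genes, and it was positive for 52.2% of all genes. With both libraries left out it was negative for 8 of 8 alpha ring genes and positive for 5 of 8 beta ring genes. These counts by ring are without the GC correction, and the part of GC content in them was not tested.

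With each of the 13 libraries left out in turn, limma called no member for the difference of differences in 12 cases, the exception being RSD 7. Without RSD 7 it called 3 members (7.14%), Psmb10, Psmc6 and Psme4, all at an adjusted p of 0.0271, and 11.6% of all genes. Without RSD 8 and CON 18 it called 1 member (2.38%), Psmd1 at -0.38 with an adjusted p of 0.0470, and 3.71% of all genes. Both shares of members rest on few genes and do not exceed those of all genes, so they are not read as a result about the members.

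Levels can be compared between genes only per length. On the scale of normalized reads per kilobase of annotated exon, the highest members were Psme2b and Psma6, followed by Psme4. Psma6 had 321 ± 67.8 in RSD and 281 ± 22.6 in CON (SD), Psme2b 321 ± 65.1 in RSD and 282 ± 42.9 in CON, and Psme4 280 ± 46.0 in RSD and 269 ± 38.9 in CON. The SDs give the spread between samples, and whether these 3 genes differ from each other was not tested. The catalytic beta subunits were lower, with Psmb5 at 84.3 ± 24.7 in RSD and 98.8 ± 13.9 in CON, Psmb6 at 91.5 ± 13.7 in RSD and 89.5 ± 9.59 in CON, and Psmb7 at 87.6 ± 9.11 in RSD and 81.1 ± 13.5 in CON. Psmb10, the immunoproteasome form, stood at 120 ± 28.0 in RSD and 137 ± 16.7 in CON. The lowest was Psmb11, at 1.68 ± 0.674 in RSD and 1.56 ± 0.772 in CON. Per kilobase of the longest transcript the order changed. Over all 13 samples the highest on that scale was Psme2 at 403, followed by Psma1 at 394, and among the catalytic genes Psmb6 was at 176, above Psmb10 at 166, Psmb7 at 102 and Psmb5 at 91.0.

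**Figure D5:**
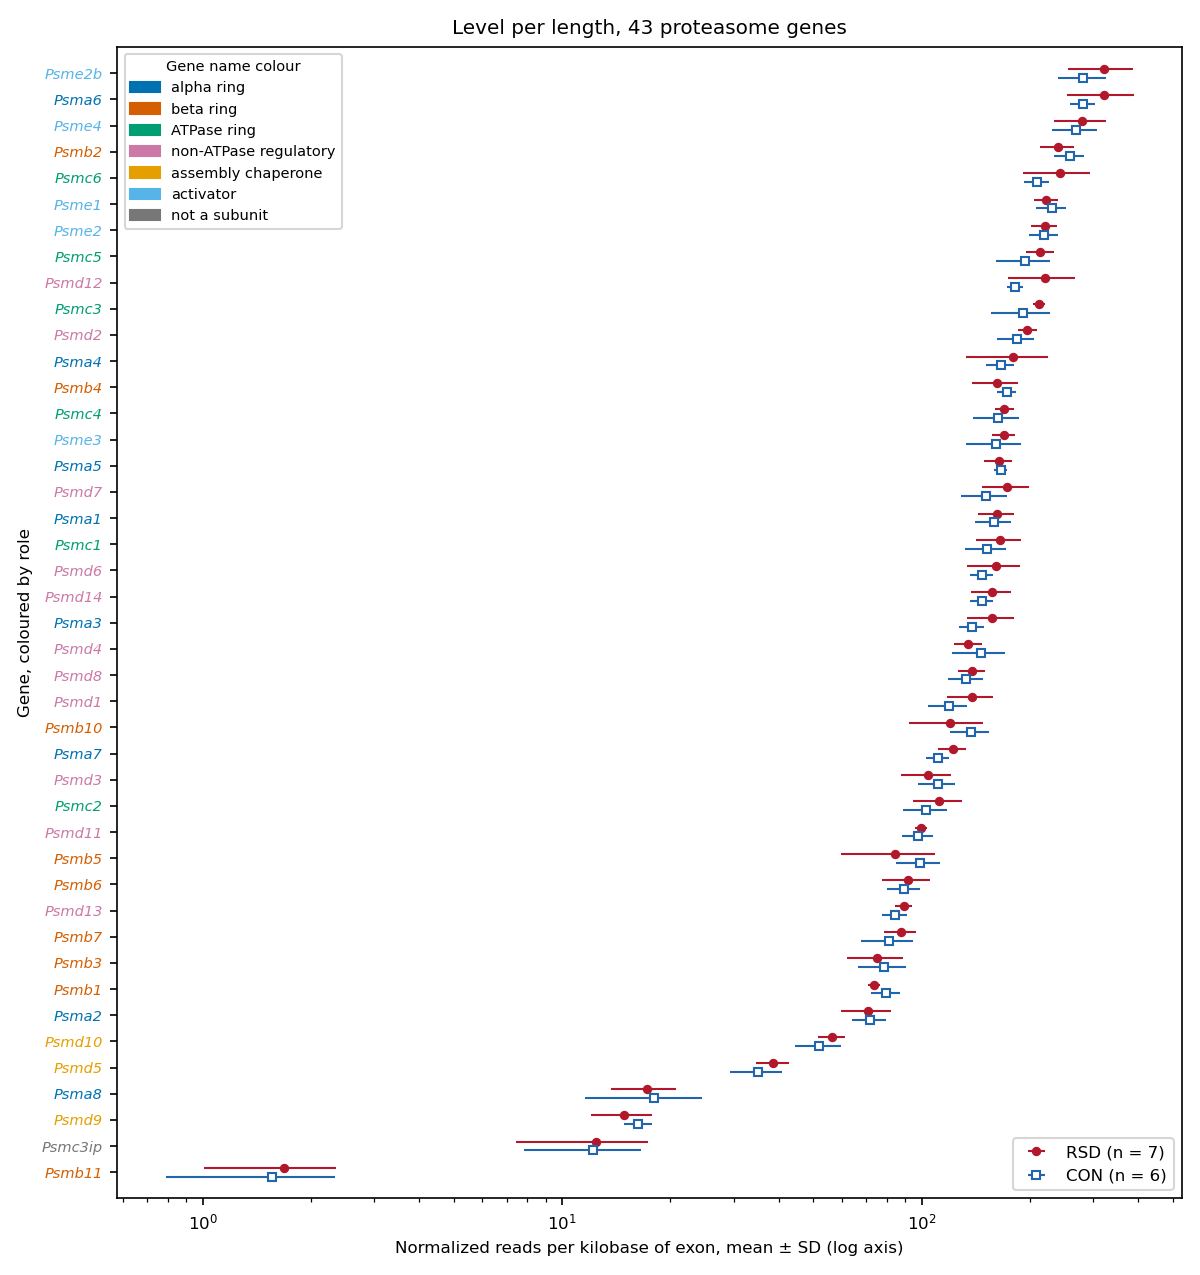
Points give the mean level of each gene per kilobase of annotated exon in normalized reads, with the SD over 7 RSD (filled circles) and 6 CON samples (open squares), on a log axis. The RSD and CON bars overlap for every gene, and the levels run from 1.68 in RSD and 1.56 in CON for Psmb11 to 321 in RSD for Psma6 and Psme2b.

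For 10 members a transcript of a pseudogene or of another member matches at an identity of at least 95% over at least 200 bp, and their reads may be shared. They are Psma3, Psma4, Psma5, Psmb3, Psmb5, Psmb6, Psmc1, Psmd2, Psme2 and Psme2b. A stretch of 219 bp of Psmd11 matches A730017L22Rik at 97.3%. Exons of Psmd9 overlap those of the long noncoding RNA gene Gm26745 on the other strand by 1849 bp of 7248 bp, the longest overlap of a member. Exons of Psmb7 overlap those of Nek6 on the other strand by 405 bp, those of Psmd13 overlap Sirt3 by 342 bp, those of Psmc3ip overlap Mlx by 385 bp, those of Psmd1 overlap Htr2b by 252 bp and those of Psmc3 overlap Slc39a13 by 215 bp, all on the other strand. On the same strand, Psmd1 shares 301 bp of exon with Gm21972 and Psmb5 109 bp with Mir686. The other overlaps were of 114 bp or less. Whether counting used the strand is not given in the sources used here, so reads of such pairs cannot be told apart.

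A list of 35 other genes of the pathway was compared in the same fit. It holds the subunits Adrm1 and Sem1, the immunoproteasome subunits Psmb8 and Psmb9, and factors of assembly and regulation. Bound deubiquitinases with the ligase Ube3c are included, as are genes that act in the transcription of proteasome genes (Nfe2l1, Nfe2l2, Ddi2 and Ngly1). The rest are ubiquitin shuttles, listed together with Vcp, Ufd1 and Nploc4, and genes of ubiquitin and its activation. All 35 were tested, and 0 were called by limma at an adjusted p below 0.05. At an unadjusted p below 0.05 there was 1, beside 4.00% of all genes. Differences were positive for 17 and negative for 18, with a median of 0.00, against 51.4% positive of all genes. There were 21 positive without RSD 8 and CON 18, with a median of 0.03, against 50.3% of all genes.

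Nfe2l1, which activates proteasome genes when activity is short, had 724 to 906 normalized reads in RSD (median 873) and 799 to 944 in CON (median 877), with a difference of -0.07 ± 0.08 (p 0.333) with all samples and -0.02 ± 0.06 without both libraries. Nfe2l2, its relative in the oxidative stress response, had 2265.0 to 3048.7 in RSD (median 2412.9) and 2144.6 to 3272.5 in CON (median 2408.9), with a difference of 0.00 ± 0.10 (p 0.977) with all samples and 0.03 ± 0.06 without both. Psmb8 had 218 to 303 in RSD (median 272) and 264 to 327 in CON (median 285), with a difference of -0.13 ± 0.09 (p 0.155) with all samples and -0.05 ± 0.08 without both. Its lowest sample was RSD 8 and its highest CON 18. Psmb9 had 94.3 to 123 in RSD (median 113) and 64.4 to 162 in CON (median 111), with a difference of 0.07 ± 0.16 (p 0.660) with all samples and 0.19 ± 0.14 without both, and CON 18 was again the highest sample.

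Among the genes of smallest p were Zfand5 (0.29 ± 0.14), Psmg1 (0.25 ± 0.13), Uchl5 (0.22 ± 0.11) and Akirin2 (0.18 ± 0.10) with positive differences, and Psmg4 (-0.44 ± 0.22) and Sem1 (-0.22 ± 0.13) with negative ones. Zfand5, a stimulator of the proteasome, had a difference of 0.36 without RSD 8 and CON 18, and Akirin2, which carries proteasomes into the nucleus, had 0.04. Without both libraries the differences were 0.18 for Psmg1, 0.16 for Uchl5, -0.43 for Psmg4 and -0.18 for Sem1. Psmg1 and Psmg4 are chaperones of the core particle, and Uchl5 is a deubiquitinase bound to the proteasome through Adrm1. None of these passed the adjusted threshold.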

How the data were processed

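Bulk RNA sequencing of 13 samples of sorted mouse microglia was analysed. The submitters' processing notes name STAR, the build mm10 and DESeq2. Not given in the sources used here are the tool versions, the annotation, the counting program and whether it used strand. The deposited table holds a signal per gene and sample, a read count divided by a size factor, as the values themselves show: 100.0% were whole multiples of 1 step in each sample, within 0.01 reads, so whole reads were recovered. The design preferred edgeR for raw counts and limma for normalized values, and the table held normalized values.

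Of all genes 12496 were kept (filterByExpr of edgeR with a minimum count of 10 and a minimum total of 15 recovered reads). limma (3.58.1, trend and robust) tested log2(value + 1), two-sided, with Benjamini-Hochberg adjustment over all genes kept and a threshold of 0.05; this scale understates fold changes of low genes. On the recovered reads edgeR (4.0.16) called 0 genes and DESeq2 (1.42.0) called 2, in R 4.3.3. Alternatives were other size factors, filters and pseudocounts, limma-voom with quality weights, a GC correction and left-out samples; subsets of the numbered ranges without RSD 8 or CON 18 were chosen after seeing the data. Symbols were matched to GENCODE M21 (GRCm38), 13790 directly, 557 by a synonym and 171 not at all. Near copies were searched with blastn 2.17.0. The limma step was tested on simulated data.

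The members and the gene lists were chosen with earlier results of these data known. Ranges and medians per group are given for the catalytic and activator genes, the 3 members of smallest p in each role, the 3 of largest SD, and the highest and lowest per length; Psma8 and Psmd4 were added after their values were seen. Of the pathway list, up to 4 genes of smallest p in each direction are named, with Psmb8, Psmb9, Nfe2l1 and Nfe2l2, and the values of a gene that this rule names are not reported here. Depth was 9.76 to 12.3 M reads per sample, and the median counting error of a member in a library was 5.3%, which covers counting alone.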

Additional observations from a re-analysis of the deposited data

Results flagged for a closer look

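The spread of each member within each group was examined for a sample far from the others, in 86 groups of values, and 17 stood out. Chance flags about 1 in 20 such groups when each is taken alone. The members share the same 13 libraries, so the flags are not independent of each other. The value given is the gap from the sample to its nearest neighbour divided by the range of the group, on the log2(normalized reads + 1) scale. The levels printed beside it are normalized reads. Of the 17, 10 concern RSD 8, 4 CON 18, 2 CON 1 and 1 CON 4.

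RSD 8 was far above the other RSD samples for Psma4 (0.59; 650 normalized reads against 336 to 440), Psmc2 (0.63; 744 against 472 to 559), Psmc6 (0.62; 1237.6 against 726 to 888), Psmd6 (0.71; 617 against 390 to 446), Psmd12 (0.75; 860 against 495 to 568) and Psme2b (0.65; 385 against 224 to 271). It was far below them for Psmb2 (0.60, at 227 against 280 to 322), Psmb4 (0.66, at 221 against 309 to 366), Psmb5 (0.62, at 35.1 against 68.9 to 104) and Psmd4 (0.73, at 305 against 374 to 403). All but Psmd4 of those low in RSD 8 belong to the beta ring.

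CON 18 was far below the other CON samples for Psmc2 (0.81, at 372 against 523 to 567), Psmc3 (0.73, at 320 against 491 to 573), Psmd2 (0.64, at 576 against 715 to 810) and Psme3 (0.84, at 308 against 487 to 530). CON 1 was above the other CON samples for Psmb5 (0.65, at 113 against 80.8 to 90.9) and Psme2 (0.69, at 457 against 364 to 391), and CON 4 was below them for Psma5 (0.73, at 201 against 220 to 228).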

How the results depend on the processing

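No paired analysis was possible because RSD and CON share no replicate numbers. The count of members called between RSD and CON was 0 under every alternative run. The count of pathway genes called was 0 in each run where it was made, which excludes the subsets of a range without RSD 8 or CON 18. Over all genes DESeq2 called 2 where limma called 0 with all samples. Other genes passed in those subsets. The smallest limma adjusted p over all genes was 0.00144 within numbers 1 to 8 without RSD 8, and 0.00817 within numbers 10 to 19 without CON 18. Members at an unadjusted p below 0.05 were 1 by limma (2.38%), beside 4.00% of all genes, and 10 within numbers 1 to 8 (23.8%), beside 22.2%. They were 4 with limma-voom and quality weights, 9 within numbers 1 to 8 without RSD 8, and 0 within numbers 10 to 19 without CON 18. With a sample left out they were 1 to 3. For limma-voom, the subsets without RSD 8 or CON 18 and the left-out samples, the share of all genes is not given here. Those counts are therefore not read as a result about the members. The median difference of the members, 0.074, was 0.009 with limma-voom and quality weights, 0.045 with the GC correction, 0.016 to 0.091 with a sample left out and -0.063 within numbers 10 to 19 without CON 18. In the alpha ring 3 of 8 differences were positive with limma-voom and quality weights and 4 of 8 with the GC correction, against 5 with all samples in the limma fit. Members called for the difference of differences, 0 with all samples, were 0 to 3 with a sample left out and 1 without RSD 8 and CON 18. The subsets without RSD 8 or CON 18 within a range were added after seeing the data. Of 42 uncalled members, the sign of the difference changed for 0 to 6 under a single alternative, 8 without RSD 8 and CON 18, 15 within numbers 10 to 19 and 12 within 1 to 8; why was not tested. Within a range 3 or 4 samples a group limit the precision, and Psmb11, Psmc3ip and Psma8 are limited by low counts.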
